A study of Mus musculus with 12 samples.

Results

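The genes described here are 10 symbols of ammonia and glutamine metabolism that divide between zones of the liver lobule: 5 enzymes of the urea cycle (Cps1, Otc, Ass1, Asl and Arg1) and the liver glutaminase Gls2 on the periportal side, and Glul, Oat, Slc1a2 and Rhbg on the pericentral side. The rule names them by symbol and uses no measured value, but it was written with earlier results of these data known. Of the 10, 9 had a row among the 37141 genes of the count table and all 9 were among the 10780 genes tested; Rhbg, an ammonia channel of the perivenous cells, is not analysed here. Messenger RNA was measured in hepatocytes sorted from mice carrying Yapflox/flox; Tazflox/flox, 500000 cells per library, by QuantSeq, a poly(A)-primed method that sequences 1 tag towards the 3′ end of a transcript.

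There were 4 groups of 3 samples, and all carried the floxed alleles. The ctrl group was uninjured with both genes intact, and the ctrl + CCl4 group was collected 48 h after carbon tetrachloride (CCl4) at 1 ml/kg in corn oil. The Yap/Taz KO group had received 5e11 genome copies of AAV8 carrying Cre under the TBG promoter, which is active in hepatocytes, 3 weeks before injury or collection, and the Yap/Taz KO + CCl4 group had received both the virus and CCl4. The labels name no control vector and no vehicle injection for ctrl. No source used here gives the sort gate, age or sex, or says that the 3 samples of a group came from separate animals, so the replicate spread behind the p-values may be technical.

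YAP and TAZ are the transcriptional coactivators of the Hippo pathway, which act through TEAD factors. The urea cycle disposes of ammonia: carbamoyl phosphate made in mitochondria from ammonia enters at ornithine, argininosuccinate is made and split in the cytosol, and arginase releases urea and returns ornithine. Blood reaches the periportal hepatocytes first, which hydrolyse glutamine and run the cycle at high capacity, while a thin layer of cells around the central vein takes up glutamate and captures the remaining ammonia as glutamine. CCl4 is activated by the cytochrome Cyp2e1 and injures the pericentral cells. The libraries carry no label of zone, so the assignment of genes to zones is background and was not measured.

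Library totals ranged from 1617761 to 3028951 counts and 11281 to 14879 genes had at least 1 count. Yap1 stood at 9.65 to 22.2 CPM (counts normalised to TMM-scaled library size) in the Yap/Taz KO group against 40.3 to 71.8 in ctrl, and at 14.2 to 14.8 against 50.6 to 65.7 after injury. Wwtr1, which encodes TAZ, was at 10.1 to 18.3 against 24.2 to 57.6, and at 19.9 to 25.3 against 32.6 to 34.8. In the edgeR test used below, neither had an adjusted p under 0.05 in either knockout contrast, like 0% of all genes tested. DESeq2 gave adjusted p of 0.000214 for Yap1 and 0.0322 for Wwtr1 without injury, but neither gene passed with DESeq2 after injury. Hepatocyte markers were present in every library, with summed levels of 89141 to 201695 CPM. The library ctrl replicate 1 stood apart from the other ctrl libraries, with summed macrophage markers of 2795 CPM against 516 and 643. Without it, the edgeR test gave Yap1 a log2 fold change of -2.10 (adjusted p = 0.0438) without injury. With injury it was -1.96 (adjusted p = 0.0274), and Wwtr1 passed in neither contrast. Values without this library are given beside some, not all, of the results that it moved.

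The promoters of the pericentral genes are shown first because these genes fell the most after injury. RefSeq promoter sequences (GRCm38.p6, 250 bases before to 50 after the start) were matched for 5 of the 10 genes: Otc, Ass1, Glul, Oat and Slc1a2. Glul lies at chr1:153899679-153899978 on the plus strand, Oat at chr7:132576349-132576648 on the minus strand, and Slc1a2 at chr2:102706188-102706487 on the plus strand, a start that falls inside the longer gene model of GENCODE. Capitals mark matches to the motifs searched on both strands, printed 5′ to 3′ along the gene.
Glul: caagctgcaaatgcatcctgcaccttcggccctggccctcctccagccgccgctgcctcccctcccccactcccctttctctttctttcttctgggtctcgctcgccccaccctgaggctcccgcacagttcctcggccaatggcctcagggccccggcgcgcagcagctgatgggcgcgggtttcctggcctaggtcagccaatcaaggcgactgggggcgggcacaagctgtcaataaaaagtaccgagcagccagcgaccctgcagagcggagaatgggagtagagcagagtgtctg
Oat: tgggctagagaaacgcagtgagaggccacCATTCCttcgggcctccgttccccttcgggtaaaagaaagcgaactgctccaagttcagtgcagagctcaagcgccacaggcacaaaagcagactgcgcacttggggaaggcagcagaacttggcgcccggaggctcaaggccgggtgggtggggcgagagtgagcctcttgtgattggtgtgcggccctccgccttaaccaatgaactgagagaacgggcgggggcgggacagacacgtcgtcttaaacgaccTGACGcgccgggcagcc
Slc1a2: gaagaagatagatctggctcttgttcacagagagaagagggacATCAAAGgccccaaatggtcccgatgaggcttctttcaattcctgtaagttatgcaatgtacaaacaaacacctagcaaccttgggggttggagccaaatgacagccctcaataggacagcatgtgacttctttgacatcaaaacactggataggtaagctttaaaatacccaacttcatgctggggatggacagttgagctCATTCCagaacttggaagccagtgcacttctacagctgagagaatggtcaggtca
The Glul window had 64.3% GC, 17 CG pairs and no match to any of the 8 motifs searched. The Oat window had 61.7% GC and 22 CG pairs. It held the TEAD motif GGAATG on the opposite strand from -221, counted from the start, and the short CREB core TGACG from 34. The Slc1a2 window had 45.7% GC and 1 CG pair. It held the TCF/LEF motif CTTTGAT on the opposite strand from -207 and the TEAD motif on the opposite strand from -5. All 32851 RefSeq promoters of this length had a median of 52.7% GC and 7 CG pairs. The TEAD motif was present in 14.7% of them, the CREB core in 20.8% and the TCF/LEF motif above in 3.73%. A second TCF/LEF form, CTTTGAA, was in 5.14% of all promoters and in none of the 5 matched. The HNF4 motif CAAAGTC was in 4.44% and the TATA box TATAAA in 13.6% of all promoters, again in none of the 5. Of the forms bound by C/EBP factors, TTGCGCA was in 2.02% of all promoters and in none of the 5. The other form, TTGCAAT, was in 2.22% and was found in Ass1. These are matches of letters; no binding was measured.

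In control hepatocytes CCl4 lowered every gene of the set that was tested. All 9 passed the test (edgeR quasi-likelihood F test, Benjamini-Hochberg adjusted p under 0.05 over all genes tested, "called" from here on), all lower, where 12% of all genes tested were called lower, 10.5% higher and 22.5% in either direction. In all 9 the 3 injured libraries lay below the 3 uninjured ones, which held for 17.5% of genes tested. The median log2 fold change of the 9 was -2.54, against 0.03 over all genes. The fall ran from 2.66-fold for Arg1 to 43.7-fold for Slc1a2, and the median was -3.48 for the 3 pericentral and -2.24 for the 6 periportal genes, a difference that was not tested. In bulk libraries fewer cells of a type and less RNA per cell cannot be told apart.

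Glul encodes glutamine synthetase, the enzyme that defines the layer of hepatocytes next to the central vein (chromosome 1, 153899944-153909723, plus strand, GRCm38). It stood at 641, 1083 and 1727 CPM in the 3 ctrl libraries and at 90.5, 96.4 and 121 after CCl4. In the Yap/Taz KO group it was at 1427, 1271 and 1558, and after injury at 115, 112 and 106. The injured libraries of both genotypes formed 1 narrow band far below every uninjured library. The log2 fold change was -3.48 (SE 0.31, adjusted p = 5.04e-06) in control and -3.68 (SE 0.31, adjusted p = 3.49e-06) in knockout hepatocytes, an 11.2-fold and a 12.8-fold fall.

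Slc1a2 encodes a sodium-dependent glutamate transporter that supplies perivenous cells with the substrate of glutamine synthetase (chromosome 2, 102658659-102790784, plus strand). Its level was 47.7, 71 and 131 CPM in ctrl and 81.8, 150.1 and 122 in Yap/Taz KO. After injury it was 0.366, 3.05 and 1.93 CPM in ctrl + CCl4, which is 17 counts over the 3 libraries, and 0.631, 2.21 and 0.314 in Yap/Taz KO + CCl4, which is 10 counts. The transcript was thus close to the limit of these libraries in both injured groups. The log2 fold change was -5.45 (SE 0.57, adjusted p = 1.49e-05) in control and -6.75 (SE 0.61, adjusted p = 7.22e-06) in knockout hepatocytes. Ranked by fold change from the lowest of the 10780 genes, Slc1a2 came 13th in control and 4th in knockout hepatocytes, and Glul 59th and 23rd.

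Oat, ornithine aminotransferase, turns ornithine towards glutamate and is also perivenous (chromosome 7, 132557478-132576398, minus strand). Ctrl libraries held 430.3, 427 and 881 CPM and ctrl + CCl4 libraries 54.9, 40 and 96. Yap/Taz KO libraries held 644, 809 and 568, and 133, 112 and 182 after injury. Both genotypes fell without overlap, by 3.18 on the log2 scale (SE 0.37, adjusted p = 3.38e-05) in control and by 2.24 (SE 0.36, adjusted p = 0.000572) in knockout hepatocytes. A gene model of Fgfr2 on the same strand covers the 3′ end of Oat; Fgfr2 itself had at most 73 counts in a library.

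**Figure D1:**
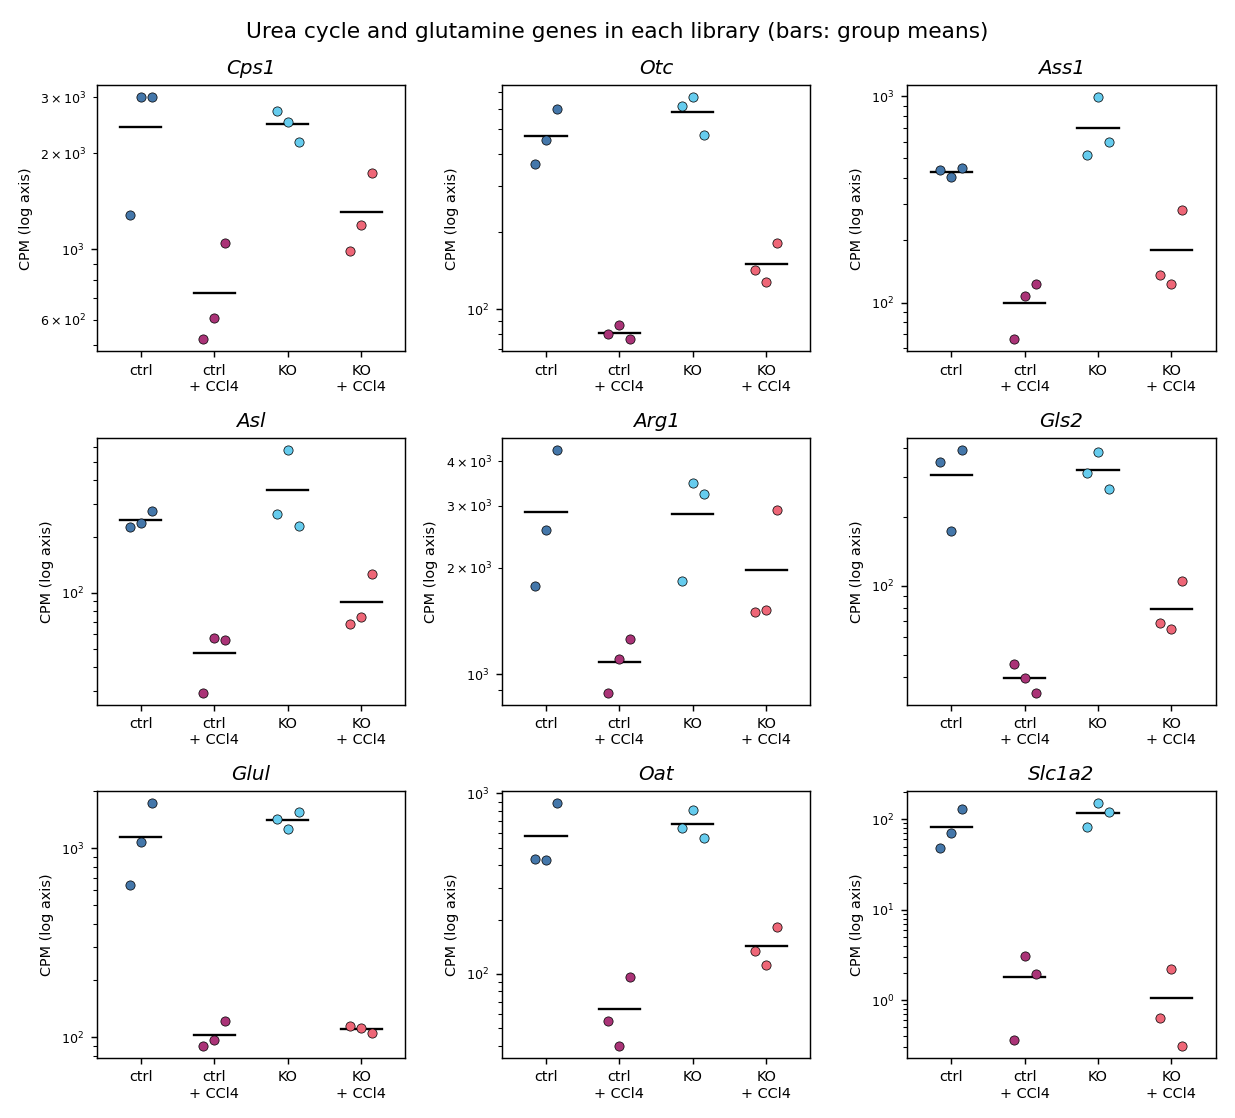
Levels of the 9 genes in each of the 12 libraries, in CPM on log axes, with 1 panel per gene, 1 point per library and a bar at each group mean. Glul falls from 641 to 1727 CPM in ctrl to 90.5 to 121 CPM in ctrl + CCl4, and Slc1a2 from 47.7 to 131 CPM to 0.366 to 3.05 CPM.

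Among the periportal genes, Gls2, the liver glutaminase that releases ammonia from glutamine beside the urea cycle, fell the most (chromosome 10, 128194457-128210004, plus strand). It was at 349, 174 and 392 CPM in ctrl and at 45.4, 39.4 and 34.2 in ctrl + CCl4. It was at 312, 385 and 266 in Yap/Taz KO and at 68.5, 64.8 and 105 in Yap/Taz KO + CCl4. All 4 groups kept the same order as for Oat, with ctrl + CCl4 the lowest. The log2 fold change was -2.94 (SE 0.31, adjusted p = 1.65e-05) in control and -2.02 (SE 0.30, adjusted p = 0.000373) in knockout hepatocytes. Spryd4, on the opposite strand, covers the 3′ end of Gls2 and had up to 80 counts in a library; no source used here says whether counting used strand, so reads at that end may not be told apart.

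Cps1, carbamoyl-phosphate synthetase, fixes ammonia in the first and rate-setting step of the cycle (chromosome 1, 67123026-67231259, plus strand). It stood at 1277, 3009 and 3005 CPM in ctrl and at 520.4, 609.5 and 1049 in ctrl + CCl4. In the knockout it went from 2714, 2517 and 2174 CPM to 986, 1191 and 1741. The groups did not overlap in either genotype, but the fall was called in control hepatocytes (log2 fold change -1.74, SE 0.35, adjusted p = 0.00219) and not in knockout hepatocytes (-0.92, SE 0.34, adjusted p = 0.0751). The call in the knockout depended on the fit: without ctrl replicate 1 the value was the same (-0.92) with an adjusted p of 0.023.

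Otc, ornithine transcarbamylase, joins carbamoyl phosphate to ornithine in mitochondria (chromosome X, 10252305-10321024, plus strand). It stood at 368, 452 and 596 CPM in ctrl and at 79.8, 86.9 and 76.4 in ctrl + CCl4. In the knockout it went from 612, 666 and 475 CPM to 141, 128 and 180.2. All 3 injured knockout libraries lay above all 3 injured control libraries and below every uninjured one. The log2 fold change was -2.54 (SE 0.24, adjusted p = 7.6e-06) in control and -1.96 (SE 0.23, adjusted p = 5.72e-05) in knockout hepatocytes.

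Ass1, argininosuccinate synthetase, adds the second nitrogen of urea from aspartate (chromosome 2, 31470207-31520672, plus strand). It was at 437, 405 and 447 CPM in ctrl and at 66.3, 108 and 122.7 in ctrl + CCl4. It was at 519.8, 991 and 598 in Yap/Taz KO and at 137, 122.9 and 279 in Yap/Taz KO + CCl4. Asl, argininosuccinate lyase, releases arginine in the next step (chromosome 5, 130011258-130029247, minus strand). It was at 224, 237 and 274 CPM in ctrl, and at 29.3, 57 and 56.1 in ctrl + CCl4. It was at 264, 580.0 and 227 in Yap/Taz KO, and at 68.2, 73.9 and 127 in Yap/Taz KO + CCl4. Both genes were high in Yap/Taz KO replicate 2 and in Yap/Taz KO + CCl4 replicate 3. The log2 fold changes in control and knockout hepatocytes were -2.12 (SE 0.34, adjusted p = 0.000498) and -1.97 (SE 0.34, adjusted p = 0.00108) for Ass1, and -2.37 (SE 0.38, adjusted p = 0.000425) and -1.99 (SE 0.37, adjusted p = 0.00175) for Asl.

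Arg1, liver arginase, splits arginine into urea and ornithine and had the smallest fall (chromosome 10, 24915221-24927484, minus strand). It went from 1770.0, 2559 and 4305 CPM in ctrl to 887, 1102 and 1253 in ctrl + CCl4, a log2 fold change of -1.41 (SE 0.35, adjusted p = 0.00996). Without ctrl replicate 3, the highest library, the value was -1.0 and was not called (adjusted p = 0.0574). In the knockout, 1836, 3479 and 3232 CPM went to 1497, 1519 and 2914, groups that overlapped, with a log2 fold change of -0.53 that was not called (SE 0.35, 95% interval -1.27 to 0.21, adjusted p = 0.331); without Yap/Taz KO + CCl4 replicate 3 it was -0.92, also not called. Arg2, the second arginase, had 6 counts over all 12 libraries, 5 of them in ctrl + CCl4, so no ratio of the isozymes is given.

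In knockout hepatocytes 7 of the 9 genes were called lower after CCl4, where 8.35% of all genes tested were called lower, 9.42% higher and 17.8% in either direction. The groups did not overlap for 8 of the 9, against 18.1% of genes tested. The median log2 fold change was -1.99, against 0.03 over all genes, at -1.97 for the 6 periportal and -3.68 for the 3 pericentral genes. Cps1 and Arg1, the first and the last enzyme of the cycle, were the 2 genes that did not pass. Without ctrl replicate 1 the counts were 9 of 9 in control and 8 of 9 in knockout hepatocytes.

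The difference between these injury responses was tested directly as the interaction, and it was called for 0 of the 9 genes, as for 0% of all genes tested; at an unadjusted p under 0.05 it was 1 of the 9 (Gls2) against 8.11% of genes tested, and DESeq2 called 12 genes and none of the 9. The estimated difference (knockout minus control, log2) was 0.94 for Oat, 0.93 for Gls2 (95% interval 0.04 to 1.81), 0.89 for Arg1, 0.82 for Cps1, 0.58 for Otc, 0.37 for Asl and 0.15 for Ass1. It was -0.20 for Glul (interval -1.04 to 0.65) and -1.30 for Slc1a2 (interval -3.20 to 0.60). Adjusted p ran from 0.601 to 0.951. Single libraries moved these estimates. Without Yap/Taz KO + CCl4 replicate 3, Ass1 was at -0.33, Asl at 0.04 and Arg1 at 0.49. Without ctrl replicate 3, Otc was at 0.37, Arg1 at 0.47, Oat at 0.51 and Glul at -0.62. Without ctrl replicate 1, Glul was at 0.09, and the estimates rose for Cps1 (1.13), Arg1 (1.14), Oat (1.115), Otc (0.73) and Asl (0.43). In that fit Gls2 was lower, at 0.82, and Ass1 was at 0.13. Without Yap/Taz KO replicate 2, Ass1 was at 0.47 and Asl at 0.91. Slc1a2 was at -0.72 without ctrl + CCl4 replicate 2 and at -2.38 without Yap/Taz KO + CCl4 replicate 2. None was called in any of these fits. That Cps1 and Arg1 passed in control and not in knockout hepatocytes is therefore not shown to be a difference between the genotypes.

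**Figure D2:**
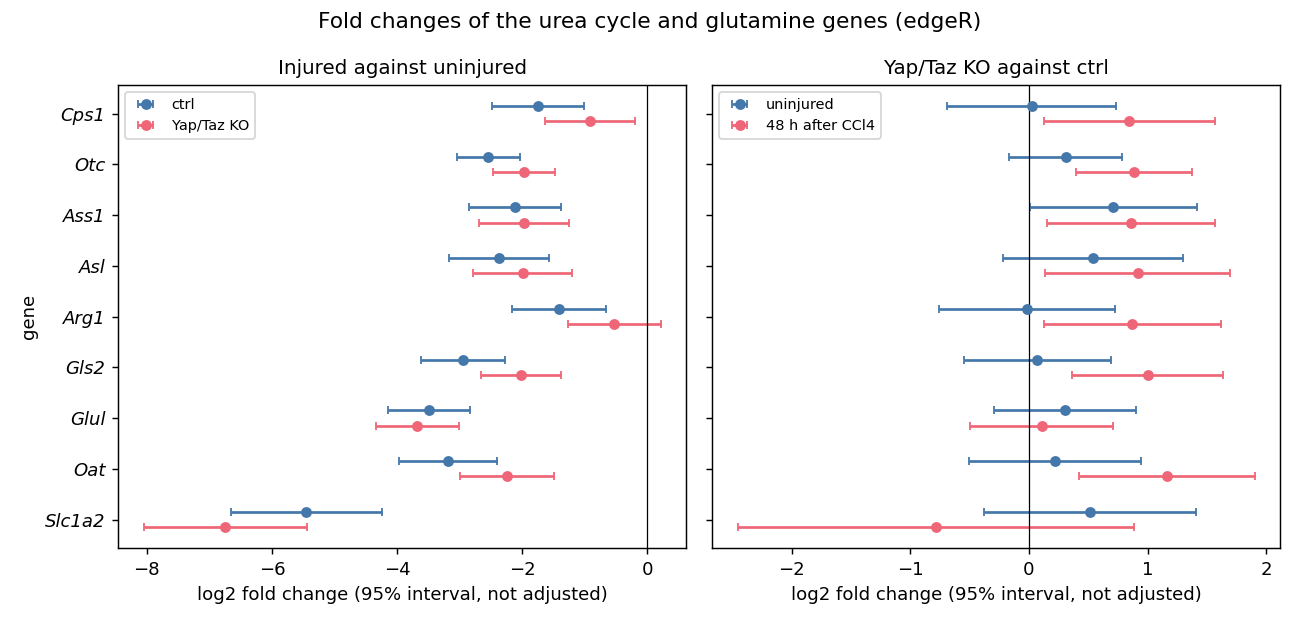
Log2 fold changes of the 9 genes with 95% intervals that are not adjusted for multiple tests, injured against uninjured for each genotype (left) and knockout against control for each injury state (right). All points on the left lie below 0, from -0.53 for Arg1 in the knockout to -6.75 for Slc1a2 in the knockout.

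Without injury, none of the 9 genes was called in the comparison of knockout with control hepatocytes, as for 0% of all genes tested; at an unadjusted p under 0.05 it was 1 of 9 (Ass1) against 9.46% of genes tested, and DESeq2 called 39 genes and none of the 9. The log2 fold changes ran from -0.01 for Arg1 to 0.71 for Ass1, with a median of 0.30 against -0.03 over all genes. Ass1 was the 1 gene whose groups did not overlap, at 519.8 to 991 CPM in Yap/Taz KO and 405 to 447 in ctrl, where 5.81% of genes tested were higher without overlap (log2 fold change 0.71, 95% interval 0.01 to 1.41, adjusted p = 0.519). The intervals were wide: for Cps1 the estimate was 0.02 with an interval of -0.69 to 0.74, and for Glul 0.30 with -0.29 to 0.90. Single libraries moved these values. Without ctrl replicate 1 the median was 0.16, with Glul at 0.02, Oat at 0.05, Cps1 at -0.28 and Arg1 at -0.26. Without ctrl replicate 3 it was 0.64, with Glul at 0.73, Oat at 0.66, Cps1 at 0.21 and Arg1 at 0.40. Without Yap/Taz KO replicate 2 it was 0.07, with Ass1 at 0.39 and Asl at 0.01, from 0.71 and 0.54. None of the 9 genes was called in these 3 fits.

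After injury the estimates for the urea cycle genes, Gls2 and Oat were all above 0 in the comparison of knockout with control hepatocytes, and none of the 9 genes was called, as for 0% of all genes tested. At an unadjusted p under 0.05, 7 of the 9 genes were higher (Cps1, Otc, Ass1, Asl, Arg1, Gls2 and Oat), against 4.07% of genes tested that were higher and 5.69% in either direction. DESeq2 called 23 genes and 1 of the 9, Otc. The 2 groups did not overlap for 6 of the 9 genes, all higher in the knockout (Otc, Ass1, Asl, Arg1, Gls2 and Oat), against 8.5% of genes tested; for Ass1 the gap was that between 122.7 and 122.9 CPM. The median log2 fold change of the 9 was 0.87, against -0.01 over all genes.

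The 6 periportal genes lay within a narrow range of this contrast, from 0.85 to 1.0. Gls2 was at 1.0 (SE 0.30, 95% interval 0.36 to 1.64), Asl at 0.92 (interval 0.14 to 1.69), and Otc at 0.89 (SE 0.23, interval 0.40 to 1.37). Arg1 was at 0.87 (interval 0.13 to 1.62), Ass1 at 0.86 (interval 0.15 to 1.57) and Cps1 at 0.85 (interval 0.13 to 1.57). The 3 pericentral genes were spread: Oat was at 1.16 (SE 0.35, interval 0.42 to 1.90), Glul at 0.11 (interval -0.49 to 0.71) and Slc1a2 at -0.78 (interval -2.45 to 0.89). Slc1a2 was at -0.19 without ctrl + CCl4 replicate 2 and at -1.85 without Yap/Taz KO + CCl4 replicate 2. Adjusted p for the 9 genes ran from 0.706 to 0.992.

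The size of this difference rested partly on 1 library. Yap/Taz KO + CCl4 replicate 3 held the highest level of its group for all 7 of these genes, and without it the median fell to 0.59, with Oat at 0.95, Gls2 at 0.76, Otc at 0.74, Cps1 at 0.59, Asl at 0.59, Arg1 at 0.49 and Ass1 at 0.40. The library's own Glul (106 CPM) and Slc1a2 (0.314 CPM) were the lowest of its group. Hepatocyte markers moved the same way: 8 of 10 were higher without overlap in the injured knockout (median log2 fold change 0.41), against 8.5% of genes tested. Their summed level was 125162 to 151370 CPM against 89141 to 112359 in ctrl + CCl4, with Alb and Ahsg the most abundant. The part of this in the result was not tested.

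Markers of several other cell types were also followed across the injury. Over all genes tested, 10.5% were called higher and 12% lower in control, and 9.42% and 8.35% in knockout hepatocytes. Summed macrophage markers (12 genes, led by Lyz2 and Cd5l) were 516 to 2795 CPM in ctrl, 2502 to 4388 in ctrl + CCl4, 239 to 1151 in Yap/Taz KO and 2019 to 3050 in Yap/Taz KO + CCl4; 3 of the 12 were called higher in control and 4 in knockout hepatocytes, and the ctrl and ctrl + CCl4 sums overlapped through ctrl replicate 1. Monocyte and neutrophil markers (10 genes, led by Plac8 and Ccr2) were 25.7 to 116, 207 to 361, 7.24 to 25.5 and 178 to 255 CPM in the same order, with Csf3r at 0 in Yap/Taz KO, and 6 and 9 of the 9 tested were called higher. Stellate cell markers (12 genes, led by Dcn and Sparc) were 336 to 1461, 1201 to 2267, 317 to 866 and 1806 to 2011 CPM, with 5 and 7 of 12 called higher. Cholangiocyte markers (8 genes, led by Spp1 and Sox9) were 44.1 to 75.7, 388 to 464, 46.6 to 86.0 and 98.0 to 226 CPM, with Cftr at 0 in all groups except ctrl + CCl4. Of the 3 that were tested, 1 was called higher in each genotype. Spp1 made up most of the sum in ctrl + CCl4, at 291 to 416 CPM, while Krt7, Krt19 and Epcam averaged 1.02, 1.16 and 1.8 CPM there. Endothelial markers (12 genes, led by Kdr and Clec4g) were 411 to 1694, 675 to 783, 326 to 899 and 720.0 to 931 CPM, ranges that overlapped, and 0 of 11 tested were called in either genotype. Erythroid markers (8 genes, led by Hbb-bs and Hba-a1) were 19.6 to 1588, 31.9 to 119, 19.8 to 56.2 and 72.7 to 94.7 CPM, with the 1588 in ctrl replicate 1, and 2 of 4 tested were called lower in control and 0 in knockout hepatocytes; Hba-a1 has a near-identical copy, so its counts are uncertain. Summed hepatocyte markers were 153321 to 192901 CPM in ctrl and 89141 to 112359 in ctrl + CCl4. They were 169955 to 201695 CPM in Yap/Taz KO and 125162 to 151370 in Yap/Taz KO + CCl4. Of the 10 hepatocyte markers, 6 were called lower and 1 higher in control, and 2 lower and 1 higher in knockout hepatocytes. The part of these markers in the results was not tested.

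**Figure D3:**
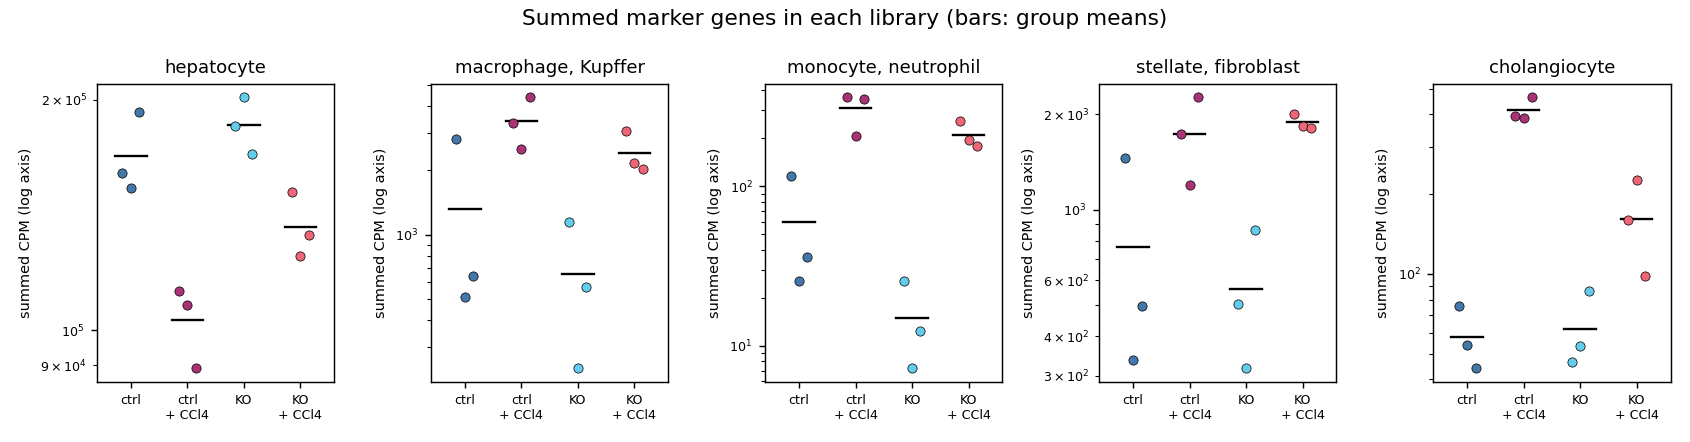
Summed CPM of marker genes of 5 cell types in each library, on log axes, with a bar at each group mean. Macrophage markers stand at 516 to 2795 CPM in ctrl and 2502 to 4388 CPM in ctrl + CCl4, and hepatocyte markers stand at 125162 to 151370 CPM in the injured knockout against 89141 to 112359 CPM in the injured control.

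Ratios of 2 genes counted in the same library do not depend on the scaling between libraries and are given as log2 of counts plus 0.5, as a description with no test. Cps1 over Glul sets the entry of the urea cycle against glutamine synthesis. The ratio was 1.09 ± 0.35 (SD, n = 3) in ctrl and 2.76 ± 0.31 in ctrl + CCl4, and 0.80 ± 0.28 in Yap/Taz KO and 3.52 ± 0.48 in Yap/Taz KO + CCl4. The injured libraries lay above the uninjured ones in both genotypes, and the 2 injured groups overlapped at 3.10 to 3.11. Ass1 over Glul moved the same way, from -1.31 ± 0.70 to -0.09 ± 0.32 in control and from -1.07 ± 0.61 to 0.60 ± 0.70 in knockout hepatocytes. Injured and uninjured libraries did not overlap within either genotype. In control the gap was only that between -0.554 in ctrl replicate 1 and -0.447 in ctrl + CCl4 replicate 1. The uninjured Yap/Taz KO replicate 2, at -0.359, lay above the latter.

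Gls2 over Glul compares the enzyme that opens glutamine with the one that makes it. It was -1.88 ± 0.91 in ctrl and -1.37 ± 0.42 in ctrl + CCl4, groups that overlapped. It was -2.16 ± 0.41 in Yap/Taz KO and -0.52 ± 0.43 in Yap/Taz KO + CCl4, which did not overlap. The injured knockout libraries (-0.79 to -0.01) all lay above the injured control libraries (-1.83 to -0.99).

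Cps1 over Cad, whose product starts pyrimidine synthesis, went from 8.08 ± 0.38 to 5.28 ± 0.90 in control hepatocytes, without overlap. It went from 8.81 ± 0.88 to 6.79 ± 0.95 in knockout hepatocytes. There the gap was only that between 7.892 in Yap/Taz KO replicate 3 and 7.882 in Yap/Taz KO + CCl4 replicate 3, at 21 and 23 counts of Cad.

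**Figure D4:**
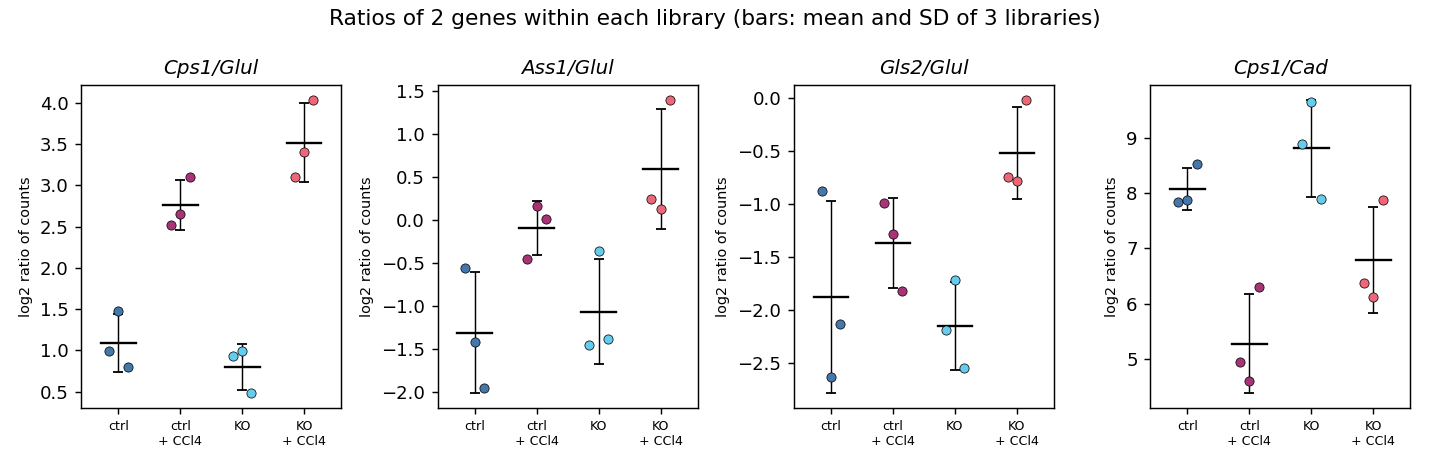
Log2 ratios of counts plus 0.5 for 4 pairs of genes within each library, with the mean and SD of the 3 libraries of each group. Cps1 over Glul rises from 1.09 to 2.76 in control and from 0.80 to 3.52 in knockout hepatocytes, while Cps1 over Cad drops from 8.08 to 5.28 and from 8.81 to 6.79.

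Of 19 tested genes for enzymes and carriers that feed the cycle, 11 were called lower and 0 higher in each genotype. Over all genes tested, 12% were called lower in control and 8.35% in knockout hepatocytes. The median log2 fold changes of the list were -1.33 in control and -0.89 in knockout hepatocytes. Got1, the cytosolic aspartate aminotransferase, fell by 2.70 (SE 0.32, adjusted p = 3.66e-05) and by 2.14 (SE 0.31, adjusted p = 0.000292). The neutral amino acid transporters Slc38a4 (-2.02 and -1.58) and Slc38a3 (-1.86 and -1.49), the latter a glutamine carrier, were called in both. Slc25a15, the mitochondrial ornithine carrier, was at -1.61 (SE 0.31, adjusted p = 0.00172) in control and at -0.95 (SE 0.30, adjusted p = 0.0414) in knockout hepatocytes, the latter lost without any 1 of 5 libraries: Yap/Taz KO + CCl4 replicate 1 (-0.83, adjusted p = 0.154) or replicate 2 (0.157), Yap/Taz KO replicate 2 (0.191) or replicate 3 (0.075), and ctrl + CCl4 replicate 1 (0.0524).

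Within that list the genes for the cycle's activator and for release of ammonia from glutamate were not called. Nags, which makes the N-acetylglutamate that activates the Cps1 enzyme, averaged 65, 68.7, 83.1 and 62.7 CPM in ctrl, ctrl + CCl4, Yap/Taz KO and Yap/Taz KO + CCl4, with log2 fold changes of 0.09 (95% interval -0.42 to 0.59) and -0.41 (interval -0.91 to 0.09). Glud1, glutamate dehydrogenase, averaged 1355, 1126, 1549 and 1466 CPM, with -0.27 (interval -0.70 to 0.16) and -0.08 (interval -0.51 to 0.35). Neither was called in either genotype. The count of the list in the knockout was 6 without Yap/Taz KO replicate 2, without Yap/Taz KO + CCl4 replicate 1 or without Yap/Taz KO + CCl4 replicate 2, and 7 without Yap/Taz KO replicate 3.

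Of 14 tested genes downstream of arginine and ornithine, 4 were called lower and 2 higher in control, where 12% and 10.5% of all genes were, and 2 lower and 2 higher in knockout hepatocytes, where 8.35% and 9.42% of all genes were. The medians were -0.08 and 0.42. Prodh, proline dehydrogenase, fell in both (-3.44, SE 0.46, adjusted p = 0.000112 and -3.20, SE 0.44, adjusted p = 0.000209), and Aldh4a1, the next enzyme of proline breakdown, was called at -1.24 and -0.93, the latter not without Yap/Taz KO + CCl4 replicate 2 (-0.75, adjusted p = 0.0525). Aldh18a1, which makes proline and ornithine precursors from glutamate, was called higher in both (2.78, SE 0.83, adjusted p = 0.025 and 4.33, SE 0.96, adjusted p = 0.00619) from 6 counts in ctrl and 2 in Yap/Taz KO. The control call was lost without any 1 library of ctrl + CCl4 or without ctrl replicate 2 or 3 (adjusted p = 0.0536 to 0.0743). Srm, spermidine synthase, rose in control hepatocytes (1.54, SE 0.26, adjusted p = 0.000624) and was at 0.67 (SE 0.25, adjusted p = 0.0787) in the knockout. Odc1, which opens polyamine synthesis from ornithine, was at 1.07 (95% interval -0.23 to 2.36) and 0.16 (interval -1.06 to 1.39) and was not called.

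Of 16 tested genes that spend glutamine on nucleotides and other products, 0 were called lower in either genotype, 1 was called higher in control and 3 in knockout hepatocytes, where 10.5% and 9.42% of all genes were called higher. The medians were 0.46 and 0.51. Ctps, CTP synthase, rose in control hepatocytes (2.64, SE 0.53, adjusted p = 0.00232) from 3, 5 and 4 counts in ctrl. It was called in the knockout (1.59, SE 0.48, adjusted p = 0.0321) from 5, 5 and 15 counts in Yap/Taz KO. Pfas of purine synthesis (1.53, adjusted p = 0.0172) and the glutamine importer Slc1a5 (2.44, adjusted p = 0.0348, from 0, 4 and 3 counts in Yap/Taz KO) were called in the knockout. These 3 calls rested on single libraries: the count was 0 without Yap/Taz KO + CCl4 replicate 2, 1 without replicate 1 or 3 of that group or without Yap/Taz KO replicate 1 or 2, and 2 without Yap/Taz KO replicate 3 or ctrl + CCl4 replicate 1. Without ctrl replicate 1 the control count was 3. Cad was at 1.10 (SE 0.48, adjusted p = 0.118) and 1.04 (SE 0.50, adjusted p = 0.17) and was not called. Of 3 tested relatives of the ammonia and glutamate transporters, 1 was called, Slc17a1, a phosphate transporter of the kidney and liver, lower in the knockout (-1.65, SE 0.33, adjusted p = 0.00294). In the knockout 8.35% of all genes tested were called lower.

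Other genes known as zonated were listed apart from the 9. Of 18 other pericentral genes tested, 8 were called lower in control and 6 in knockout hepatocytes, where 12% and 8.35% of all genes were. In this list 0 were called higher, and 10 and 12 were not called, with medians of -1.02 and -1.0. Cyp2e1 was at -4.63 (SE 0.46, adjusted p = 1.08e-05) and -3.17 (SE 0.43, adjusted p = 0.000179), and Rgn, which encodes regucalcin, at -1.61 and -1.24. Notum, a secreted Wnt inhibitor, fell in control (-2.68, SE 0.41, adjusted p = 0.000305) and was at 0.43 (SE 0.38, adjusted p = 0.478) in knockout hepatocytes. The difference of 3.11 (SE 0.56) was not called (adjusted p = 0.49), and was with DESeq2 (adjusted p = 0.00254) and with no filter (1.61e-06). Lhpp, a phosphatase, fell in both (-2.30, adjusted p = 0.000803 and -2.41, adjusted p = 0.000381). Of 19 other periportal genes tested, 14 were called lower and 1 higher in control, where 12% and 10.5% of all genes were. In knockout hepatocytes 11 were called lower and 2 higher, where 8.35% and 9.42% of all genes were. The periportal medians were -1.65 and -1.04. Cyp2f2 (-3.46 and -3.39) and Pigr, the polymeric immunoglobulin receptor (-2.52 and -2.79), were called in both, and so were Aass of lysine breakdown (-2.43 and -1.35) and G6pc, glucose-6-phosphatase (-2.37 and -2.09).

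Of 20 genes for factors known to regulate the zonated or urea cycle genes, 7 were called lower and 0 higher in each genotype. Over all genes tested, 12% were called lower in control and 8.35% in knockout hepatocytes. The regulator medians were -0.50 and -0.69. Cebpa, a hepatocyte factor that urea cycle genes depend on, fell by 1.40 (SE 0.25, adjusted p = 0.00111) and by 1.46 (SE 0.25, adjusted p = 0.00106). Klf15, a regulator of amino acid breakdown, fell in control (-2.76, SE 0.45, adjusted p = 0.000559) and was at -0.89 (SE 0.42, adjusted p = 0.166) in the knockout, a difference that was not called (adjusted p = 0.533). With no filter the Klf15 difference was called (1.85, adjusted p = 0.0028). Its fall in the knockout was called with no filter (-0.88, adjusted p = 0.0217) and without Yap/Taz KO + CCl4 replicate 3 (-1.56, adjusted p = 0.0206). Ppargc1a (-1.93, adjusted p = 0.00476 and -1.72, adjusted p = 0.00973) and Nr1i2 (-1.06, adjusted p = 0.00689 and -1.03, adjusted p = 0.00898) were called in both. Ppara was at -0.56 (adjusted p = 0.167) in control and fell in the knockout (-1.44, SE 0.28, adjusted p = 0.00241), a difference that was not called (adjusted p = 0.601). The knockout count was 2 without Yap/Taz KO + CCl4 replicate 2 and 4 without Yap/Taz KO replicate 2; without the former Nr1i2 (-0.88, adjusted p = 0.0512) and Ppargc1a (-1.53, adjusted p = 0.052) were not called, nor was Ppargc1a without the latter (-1.07, adjusted p = 0.0784). In the edgeR test no gene of these lists was called in either knockout contrast or in the difference between the injury responses, like 0% of all genes tested. DESeq2 called 1 gene higher in each of the arginine and ornithine, other pericentral and other periportal lists in the injured knockout. The pericentral one was Cyp2e1 (1.36, adjusted p = 0.0487), which also passed with no filter there (1.74e-05) and in the difference (0.00805). In the uninjured knockout DESeq2 called 1 arginine and ornithine gene lower and 1 glutamine-using gene higher.

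**Figure D5:**
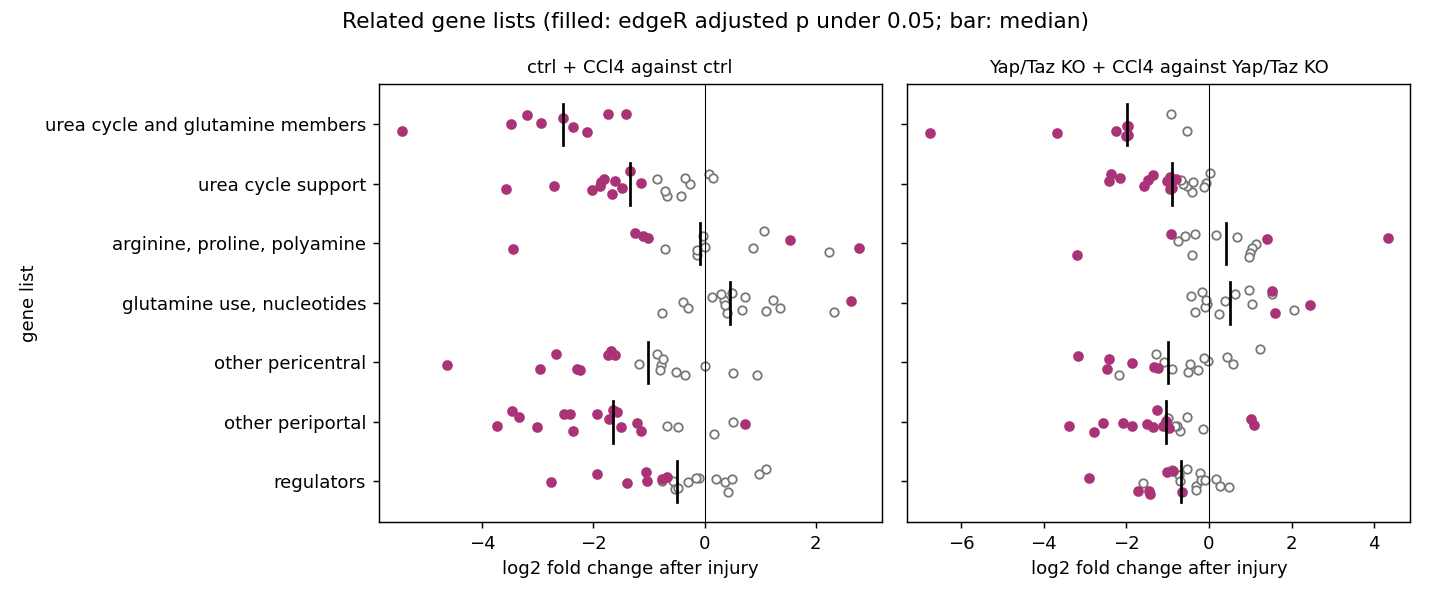
Log2 fold change after injury of each tested gene in the 9-gene set and 6 related lists, for control (left) and knockout (right) hepatocytes, filled where the adjusted p is under 0.05, with a bar at each list's median. The medians of the 9-gene set are -2.54 and -1.99, those of the support genes -1.33 and -0.89, and those of the glutamine-using genes 0.46 and 0.51.

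The genes with the most similar pattern over the 12 libraries were sought among 5473 other genes with a mean of at least 20 CPM, by Pearson r of log2 CPM. The libraries share the injury contrast and the scaling, so r is a description. For Glul they were Cyp2c38 (0.991), Serpinf1 (0.989) and Pnkd (0.989), and for Gls2 Gnmt (0.988), Slc22a18 (0.981) and Ugt2b1 (0.981). For Otc they were Slc22a18, Pbld2 and Serpinc1, each at 0.991, and for Cps1 Aox3 (0.972), Hs6st1 (0.971) and Atl3 (0.964). Cyp2c38, a cytochrome P450 gene, fell by 5.96 on the log2 scale in control (SE 0.44, adjusted p = 1.13e-06) and by 5.40 in knockout hepatocytes (SE 0.42, adjusted p = 1.67e-06), and Gnmt, glycine N-methyltransferase, by 3.48 and 2.87.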

How the data were processed

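Messenger RNA of sorted hepatocytes was sequenced as QuantSeq 3′ tags in 12 samples, and the authors deposited raw, unscaled read counts for each gene symbol. The submitters' processing notes name FastQC, cutadapt and STAR 2.6.1d; which program counted the reads, with what strand setting, and whether molecular identifiers were used is not stated there or in the labels. Groups came from the labels. The members and lists were chosen with earlier results of these data known. The test, in edgeR 4.0.16 (R 4.3.3), covered genes that passed filterByExpr (count 10, total 15): TMM scaling, 1 coefficient per group over all 12 samples, quasi-likelihood F test, Benjamini-Hochberg adjustment at 0.05. CPM use TMM-scaled totals. The 95% intervals are not adjusted. Named list genes are the 3 called genes with the smallest adjusted p per list and injury response, plus 8 fixed names; some of these are not reported here. Gene positions came from GENCODE M21. Libraries of a group differed by more than sampling noise in every pair (chi-square over degrees of freedom 8.56 to 26.61). On data simulated for the control injury response (10467 genes, 50 changed at each size), 64% of genes lowered by 2 on the log2 scale and 10% of those lowered by 1 were recovered. In the data a far larger share of genes was called (22.5%), which changes the adjusted p cutoff. The simulated shares therefore do not give the recovery in the data. Alternatives were RLE, library totals, no filter, DESeq2 1.42.0, a replicate block, the 6 samples compared, and leaving out each library.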

Additional observations from a re-analysis of the deposited data

How the results depend on the processing

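All 9 genes kept the sign of both injury responses under every alternative. Leaving out 1 library gave 8 to 9 of the 9 called in control and 7 to 8 in knockout hepatocytes, and 1666 to 3173 and 1176 to 2331 genes called in all. Cps1 in the knockout passed with no low-count filter (adjusted p = 0.00202), DESeq2 (0.0485), the replicate block (0.0238) and the fit of the 6 samples (0.0161). For the knockout effect, calls over all genes were 210 with no filter, 39 with DESeq2 and 0 to 1 without 1 library in uninjured hepatocytes, and 109, 23 and 0 to 3 in injured ones, with 5 from the 6 samples. Of the 9 genes, 3 passed after injury with no filter (Arg1, adjusted p = 0.038; Gls2, 0.0482; Oat, 0.003) and 1 with DESeq2 (Otc, 0.0217). The difference between the injury responses gave 115 genes with no filter, 12 with DESeq2 and 0 without any 1 library, and 0 of the 9 genes in each. The cause was not tested. Scaling by library totals raised the median of all genes by 0.37 in both injury responses, with 1974 higher and 698 lower calls in control and 1814 and 406 in knockout hepatocytes (1137 and 1290, and 1016 and 900, with TMM); the 9 genes kept their calls, the support list had 5 lower calls in the knockout, the regulators 3 and 4, and the glutamine-using genes 5 and 6 higher calls. It moved both knockout contrasts by -0.14, where the small values of Cps1 (-0.11) and Gls2 (-0.07) without injury and Glul (-0.04) with injury were then below 0. Deviations of samples sharing a replicate number correlated at -0.15 to 0.32, over 0.1 in 7 of 18 pairs, against 7 of 36 other pairs. These values do not decide whether the number marks a pairing. The labels do not say what it marks, so the main fit did not use it. With the replicate block 2594 and 2095 genes and 9 and 8 of the 9 were called in the injury responses and 0 in the other comparisons. With 17 and 10 counts, Slc1a2 after injury is limited by depth.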
